A study of Mus musculus with 3 samples.

Results

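CD8 T cells are the lymphocytes that carry a T cell receptor together with the coreceptor CD8, and they were described here as they were found in splenocytes from which T cells had been depleted with CD3 microbeads. A barcode, the tag shared by the molecules captured with a cell, was counted as a CD8 T cell when it held more than 200 and fewer than 3500 genes, under 15% mitochondrial transcripts and a top hashtag count at least 3 times the next, together with at least 1 unique molecular identifier (UMI) of Cd3d, Cd3e or Cd3g and at least 1 UMI of Cd8b1. It also had to hold 0 UMIs of Cd4, Cd79a, Lyz2 and Ncr1, which mark CD4 T cells, B cells, myeloid cells and natural killer (NK) cells. The rule was met by 126 of 47453 kept barcodes, 5 in the C57Bl/6 control library, 120 among C57Bl/6 Ang II barcodes and 1 among B6.SLE123 barcodes.

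Spleens were taken from mice of 12 to 14 weeks of age, and each of the 3 libraries of 10x Genomics 5′ single-cell RNA sequencing pooled 2 conditions of 3 mice each. The control library held male C57Bl/6 mice with a sham pump and age-matched female C57Bl/6 mice, the Ang II library held C57Bl/6 mice given angiotensin II (Ang II) by minipump for 2 weeks from 10 weeks of age with placebo or with 2-hydroxybenzylamine (2-HOBA, a scavenger of isolevuglandins), and the B6.SLE123 library held lupus-prone B6.SLE123 mice given placebo or 2-HOBA for 6 weeks from 7 weeks of age. The study describes CD3 bead depletion of the splenocytes without separating conditions, and whether it was equally complete in each was not tested. The 6 hashtags of a library, C0301 to C0306, were not named for a condition or a mouse, so the conditions within a library could not be separated, and sex, pump and treatment cannot be told apart from the library. The libraries held 44146350 to 63516694 UMIs over 16062 to 20691 barcodes. With 1 library per group no test was possible, and every interval below is an exact 95% interval for counting error alone, which leaves out the variation between mice.

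The T cell receptor of a CD8 T cell recognises peptides held by MHC class I molecules, and CD8, a pair of chains encoded by Cd8a and Cd8b1, binds class I beside it. Naive CD8 T cells circulate through spleen and lymph nodes with the homing receptor CCR7 and express the transcription factors LEF1 and TCF1 (Tcf7). Memory cells add receptors for IL-15 such as Il2rb, the surface protein Ly6C and stored transcripts of chemokines and granule proteins, and effector cells load granzymes and perforin. In hypertension research, CD8 T cells are known as a population that accumulates in the kidney of animals given Ang II.

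The CD8 T cells were almost all from 1 hashtag of 1 library. Of the kept Ang II barcodes 0.858% were CD8 T cells (0.712% to 1.025%), beside 0.0313% of the control barcodes (0.0102% to 0.0731%) and 0.00571% of the B6.SLE123 barcodes (1 of 17514, 0.000145% to 0.0318%). Ang II exceeded control 27.4-fold (log2 ratio 4.78, 3.51 to 6.42), from 120 against 5 cells. The control cells included barcodes with 6 and 18 UMIs of the NK gene Tyrobp, which was at 1 UMI over all 120 Ang II cells. Whether the 5 and the 120 are cells of the same kind was not tested. Of the 120 Ang II cells, 118 carried hashtag C0303, which was 98.3% (94.1% to 99.8%), and 1 each carried C0302 and C0305. Within C0303 they were 4.95% of 2385 kept barcodes (4.11% to 5.90%), and within the other 5 Ang II hashtags they were 2 of 11597, or 0.0173% (0.00209% to 0.0623%). Without C0303 the log2 ratio against control turned to -0.86 (-4.25 to 1.75). In the control library the 5 cells were spread over C0301, C0302, C0304 and C0306, and hashtags with 0 cells allowed shares of up to 0.0904% to 0.158% over the 3 libraries.

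**Figure D1:**
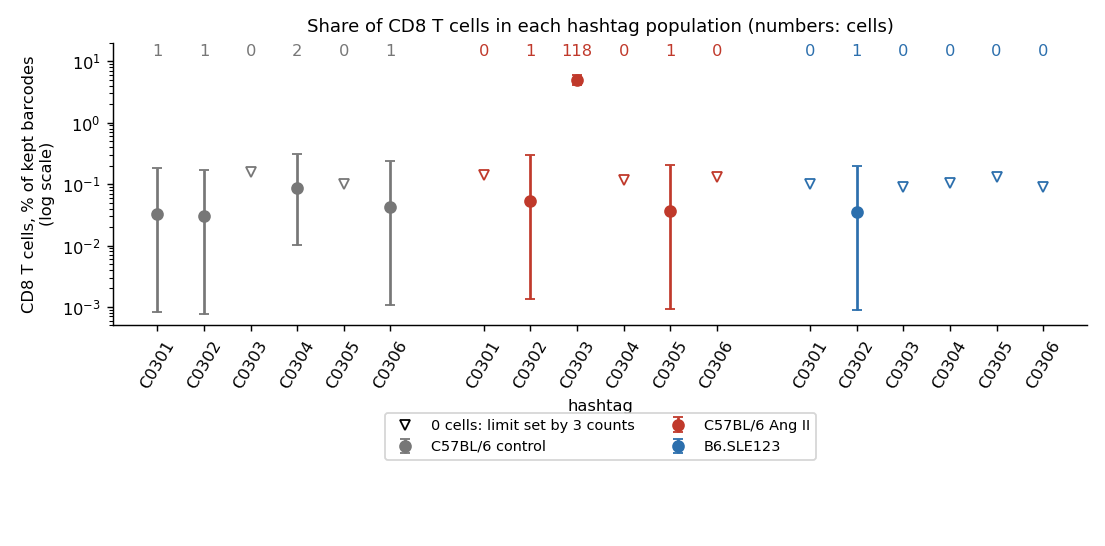
Share of CD8 T cells among kept barcodes (%, log axis) for each hashtag of each library. Points carry exact 95% intervals, open triangles mark hashtags with 0 cells at the limit set by 3 counts, and the number of cells is printed above. Hashtag C0303 of the Ang II library stands at 4.95% with 118 cells, and no other hashtag held more than 2 cells.

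CD4 T cells, defined by the same rule with Cd4 in place of Cd8b1 and 0 UMIs of Cd8b1, followed the same hashtag. The Ang II library held 74, of which 72 carried C0303, while control held 2 and B6.SLE123 held 1. C0303 held 1.64 CD8 T cells per CD4 T cell. NK cells (Ncr1, and 0 UMIs of CD3, Cd4, Cd8b1, Cd79a and Lyz2), which lack the bead target, numbered 38 to 62 per Ang II hashtag and 53 in C0303. The median depth was 2924 UMIs per kept barcode in C0303 and 2670 to 2832 in the other 5. Neither the mice nor the condition behind C0303 is named in the labels.

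The members met the rule by a wide margin in most cases. Of 13982 kept Ang II barcodes, 514 had a CD3 UMI (364 of them in C0303), 170 of these had Cd8b1, 162 were left without Cd4, 128 without Cd79a, 121 without Lyz2 and 120 without Ncr1. Just inside the limits, 12 members had 1 Cd8b1 UMI and 10 had 2, with a median of 6 and a maximum of 19, and 1 member had a single CD3 UMI against a median of 12. The lowest hashtag ratios were 3.01 and 3.08, the median was 81.5, and 4 barcodes failed the hashtag rule alone, the closest at 2.74. Just outside, 33 kept barcodes had Cd8b1 without CD3, 7 had CD3 with both Cd4 and Cd8b1, and 80 had CD3 with neither. A median CD8 T cell of the Ang II library held 4894 UMIs (1474 to 10864) and 1636 genes (723 to 2685), more than the 4040 UMIs of CD4 T cells, 2506 of NK cells and 2786 of B cells. Of the 120 barcodes, 6 were also found in another library.

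The genes of the rule stood at 1317 CPM (UMIs per 1000000) for Cd8b1, 878 for Cd3d, 820 for Cd3e and 744 for Cd3g, and Cd3e was found in 95.8% of the cells, values that the rule itself fixed in part. Further T cell genes that the rule did not use were present as well. Cd8a, the other CD8 chain (ENSMUSG00000053977, chromosome 6, 71373427 to 71379173 in mm10, plus strand), was found in 100 of 120 cells at 510 CPM (454 to 571), in 0 of 74 CD4 T cells, and at 1.14 CPM in NK cells. The T cell receptor constant genes Trac and Trbc2 were found in 49.2% and 82.5% of the cells. In Ang II B cells (Cd79a and no CD3 UMI, median 2786 UMIs), which do not express these genes and so give the background, the shares were 0.204% for Cd8a, 0.110% for Trac and 0.238% for Trbc2. The 18 genes of T cell receptor signalling on the list were all detected and summed to 4660 CPM (4487 to 4837), with the kinase Lck at 619 CPM in 94.2% of cells, the adaptor Lat at 480 CPM in 85.8% and the adaptor Skap1 at 332 CPM in 69.2%. The gamma delta T cell genes Tcrg-C2, Trdc, Tcrg-C1 and Tcrg-C4 were found in 4, 3, 2 and 1 cells, and Cd163l1 in 1.

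Markers of other cell types were low but not all at 0. Of 10 B cell markers beyond Cd79a, 11 of the 120 cells held none, 22 held 3 or more and 1 held 5 or more. Ighm, the IgM heavy chain, was found in 60 of 120 CD8 T cells, 42 of 74 CD4 T cells and 74 of 311 NK cells, and Cd79b in 17, 0 and 16. In CPM, Ighm stood at 173 in CD8 T cells against 1897 in B cells, and Cd79b at 42.4 against 1810. The neutrophil genes S100a8 and S100a9 were found in 19.2% and 24.2% of CD8 T cells, and in 19.2% and 23.5% of B cells. Over the 6 neutrophil markers, 1 CD8 T cell held 31 of the 106 UMIs, where the highest count in a CD4 T or NK cell was 3. The 8 NK markers summed to 94 UMIs in 33 of the 120 cells (159 CPM, against 23241 CPM in NK cells). The rules fix 1 of them, Ncr1, at 0 in CD8 T cells and above 0 in NK cells. Gzma held 39 of the 94 UMIs, Eomes 26 and Klre1 19, while the adaptor Tyrobp was at 1 UMI and Klra8 at 0. The markers of monocytes, macrophages and dendritic cells, with Lyz2 at 0 by the rule, summed to 44 UMIs in 37 cells, 40 of them of Cst3. The plasma cell markers summed to 28 UMIs in 24 cells, led by Xbp1 with 14. The erythroid and platelet genes were at 0. With barcodes holding any of Cd79b, Ms4a1, S100a8 or S100a9 left out as well, 60 cells remained. The part of free RNA and of mixed droplets in the other levels given below was not tested.

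The cells expressed the naive and recirculation genes broadly. The 12 genes of this list summed to 4051 CPM (3890 to 4217) in CD8 T cells, 4921 CPM (4675 to 5176) in CD4 T cells, 2543 CPM in NK cells and 2177 CPM in B cells. Of the 120 cells, 119 held a UMI of at least 1 of Lef1, Tcf7 and Ccr7, 100 held at least 2 of these genes and 54 held all 3. Klf2, a factor that keeps T cells recirculating, stood at 663 CPM in 87.5% of cells. The IL-7 receptor chain Il7r, needed for the survival of resting T cells, stood at 575 CPM (515 to 639) in 76.7%, against 1.55 CPM in 0.306% of B cells. Lef1 was found in 82.5% of cells at 468 CPM (414 to 526), and in 1.44% of B cells. Tcf7 stood at 432 CPM (381 to 489) in 81.7% of cells. B cells held Ccr7, Klf2 and S1pr1 as well, in 33.9% to 67.4% of cells, and Lef1, Tcf7, Il7r, Dapl1 and Igfbp4 in at most 1.44%.

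**Figure D2:**
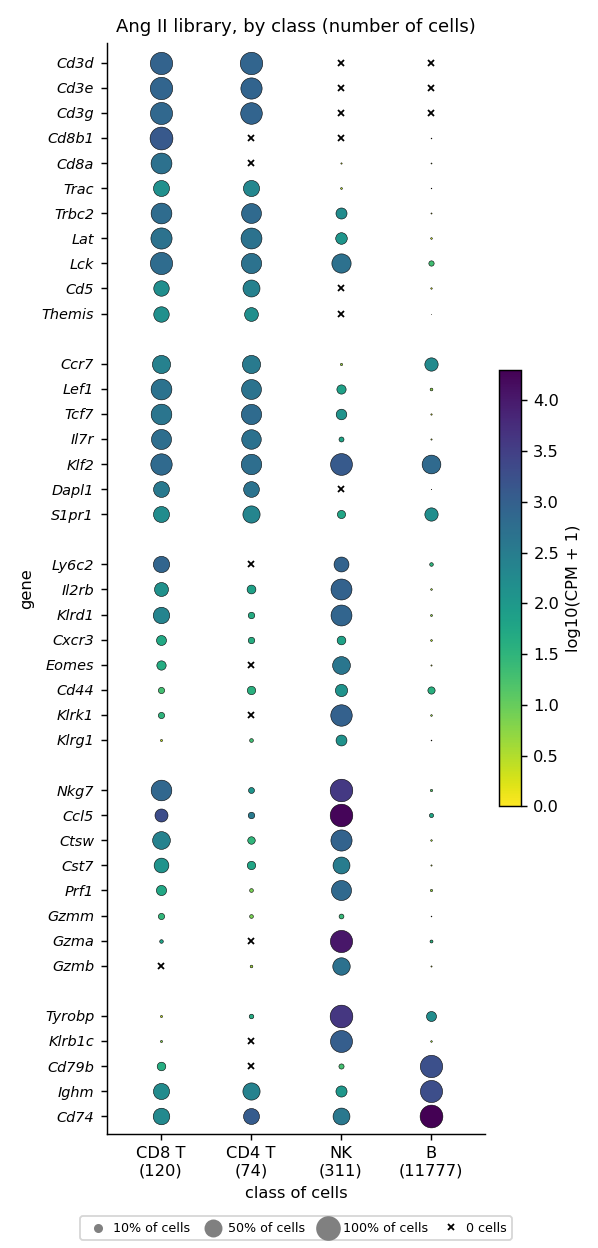
Level (colour, log10(CPM + 1)) and share of cells with a UMI (dot area) for selected genes in 120 CD8 T, 74 CD4 T, 311 NK and 11777 B cells of the Ang II library. Crosses mark genes found in 0 cells of a class, which the rules fix for the CD3 genes in NK and B cells and for Cd8b1 in CD4 T and NK cells. CD8 T cells carry the naive genes of CD4 T cells together with Nkg7, Ctsw and Klrd1, at lower levels than NK cells, and Gzmb was found in 0 of them.

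Cytotoxic genes were present in part. The 15 genes of the cytotoxic and chemokine list summed to 3383 CPM (3236 to 3535), against 635 CPM (549 to 731) in CD4 T cells and 35615 CPM in NK cells. Ccl5, a chemokine that memory T cells and NK cells hold in store (ENSMUSG00000035042, chromosome 11, 83525778 to 83530518, minus strand), made up most of the sum at 2022 CPM. Nkg7, a membrane protein of cytotoxic granules (ENSMUSG00000004612, chromosome 7, 43437073 to 43438249, plus strand), was the most widespread, at 751 CPM in 81.7% of cells, against 1.03% of B cells. The granule protease cathepsin W (Ctsw) stood at 258 CPM in 72 cells and the protease inhibitor cystatin F (Cst7) at 124 CPM in 50 cells. The killing molecules themselves were rare. Perforin (Prf1) was found in 24 cells at 54.2 CPM, Gzmm in 9, Gzmk in 3, and Gzmb in 0 of 120 cells, which allows up to 5.09 CPM. Gzma was found in 3 cells with 39 UMIs in all, of which 1 cell held 35. Ifng, Fasl and Ccl3 were each at 1 UMI.

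Memory genes were uneven. Ly6c2, which encodes a Ly6C protein of memory CD8 T cells and monocytes (ENSMUSG00000022584, chromosome 15, 75108158 to 75111970, minus strand), stood at 822 CPM (751 to 899) in 50.8% of cells, against 2.51% of B cells. The NK receptor chain CD94 (Klrd1) stood at 231 CPM in 51.7%, Il2rb at 139 CPM in 37.5%, the chemokine receptor Cxcr3 at 52.6 CPM in 19.2% and the transcription factor Eomes at 44.1 CPM in 16.7%. Genes of terminal effector cells were near or at 0. S1pr5 was at 0, Klrg1 at 1 UMI, Cx3cr1 at 2 and Zeb2 at 3 UMIs. Cd44 was found in 9 cells at 18.7 CPM, below the 37.9 CPM of B cells.

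Exhaustion and proliferation genes were low, and of the residency genes Cxcr6 stood out. Over the 11 inhibitory receptor genes the sum was 161 CPM (130 to 197), led by Slamf6 (55.9 CPM) and Tox (33.9 CPM), while Lag3 was at 0, Havcr2 at 1 and Pdcd1 at 2 UMIs. The 10 proliferation genes summed to 78.0 CPM (57.1 to 104), with Mki67 and Top2a at 2 UMIs each and Birc5, Pclaf, Cdk1 and Ccna2 at 0. In CD4 T cells Mki67 was at 29 UMIs, of which 1 cell held 27. The 6 residency genes summed to 122 CPM (95.5 to 154) in 48 of the 120 cells, against 65.4 CPM in 10 of 74 CD4 T cells and 20.2 CPM in B cells. NK cells stood higher, at 250 CPM in 110 of 311 cells. Most of that was Rgs1, at 217 CPM in NK cells against 27.1 CPM in CD8 T cells. Cxcr6 was found in 25.0% of CD8 T cells at 67.8 CPM against 1.35% of CD4 T cells and 0.187% of B cells, Itgae in 10.0% and Itga1 in 0. The early activation genes summed to 1212 CPM (1125 to 1304), led by the activation antigen Cd69 (237 CPM, 50.8% of cells), Junb (205 CPM) and Nfkbia (192 CPM). Their sum was 1309 CPM (1184 to 1444) in CD4 T cells, 1868 CPM in NK cells and 990 CPM in B cells. The interferon response genes summed to 771 CPM (702 to 846), with Ifi27l2a at 224 CPM. This was below the 1155 CPM (1038 to 1282) of CD4 T cells and the 833 CPM of B cells, and above the 431 CPM of NK cells.

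Genes of traffic, survival and antigen presentation were at levels near those of CD4 T cells. The 15 chemokine receptor and integrin genes summed to 1831 CPM (1723 to 1943) against 1996 CPM (1841 to 2161) in CD4 T cells, led by the adhesion molecule Selplg (400 CPM), the integrin chain Itgb7 (285 CPM) and Ccr7 (264 CPM). The gut-homing receptor Ccr9 was found in 18 CD8 T cells at 37.3 CPM, against 6.54 CPM in CD4 T cells. The 16 cytokine receptor and survival genes summed to 2588 CPM (2460 to 2721) against 2647 CPM (2468 to 2836), led by the shared cytokine receptor chain Il2rg (578 CPM), Il7r (575 CPM) and the survival factor Mcl1 (322 CPM). The 10 MHC class I genes summed to 7824 CPM (7600 to 8053) against 7467 CPM (7163 to 7779), led by H2-K1 (2232 CPM), B2m (2048 CPM) and H2-D1 (1948 CPM).

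The receptors for the hormone given to these mice were not detected. Agtr1a, Agtr1b and Agtr2, the angiotensin II receptors, and the mineralocorticoid receptor Nr3c2 were each at 0 UMIs in 589963, which allows up to 5.09 CPM per gene. The glucocorticoid receptor Nr3c1 was found in 32.5% of cells at 84.7 CPM, below the 123 CPM of B cells.

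Which genes set the CD8 T cells apart from the CD4 T cells beside them was described by the log2 ratio of summed levels over 2194 genes with at least 50 UMIs in both classes together. A gene was counted when its ratio reached 2-fold, and 40 genes were higher (1.82%) and 54 lower (2.46%), with a median log2 ratio of -0.08. With TMM scaling, which sets the bulk of genes equal, 62 were higher and 28 lower and the median was 0.096, so that the balance of the directions depends on the scaling. The filter keeps a gene that is high in a single class, so the counts describe these sums only. All 4 tested genes of the cytotoxic list were higher, Ctsw, Nkg7, Ccl5 and Cst7, with a list median of 2.62. Of the memory list 3 of 5 tested genes were higher, and of the naive list 0 of 12 were higher and 1, Igfbp4, was lower, at a list median of -0.26.

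Ly6c2 gave the highest ratio. It was at 485 UMIs in 61 CD8 T cells and at 0 UMIs in CD4 T cells. With the 0 set at a floor of 3 UMIs it was 83.8-fold higher (log2 ratio 6.39, exact lower limit 6.08). The highest count in a cell was 35. Its neighbour Ly6c1 on the same chromosome (ENSMUSG00000079018, 75044018 to 75048830, minus strand) encodes a closely related Ly6C protein and went the other way, with 20 UMIs in 4 CD8 T cells against 56 UMIs in 28 CD4 T cells, a log2 ratio of -2.43 (-3.25 to -1.68). These paralogs are much alike, and reads that fit both may have been assigned unevenly or left out, so each level is uncertain. Ly6a (Sca-1), a further member of the family nearby, was also lower, by 2.53 on the log2 scale (23 against 69 UMIs). All 20 Ly6c1 UMIs lay in 4 of the 12 CD8 T cells with 1 Cd8b1 UMI. The 108 cells with at least 2 held 0, for which the log2 ratio was -5.04 at the floor of 3 UMIs.

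The start regions of Ly6c2, Ly6c1 and Nkg7 are shown because the first pair are neighbours that differed in opposite directions and Nkg7 was the cytotoxic gene found in most CD8 T cells. Each is 1 RefSeq window on GRCm38.p6 of 250 bases before to 50 bases after an annotated start, printed 5′ to 3′ on the strand of the gene, and capitals mark the RUNX core TGTGGT (reverse complement ACCACA) and the T-box half-site GGTGTGA (reverse complement TCACACC), letters that transcription factors of CD8 T cells are known to bind. The windows are chr15:75111922-75112221 (minus) for Ly6c2, chr15:75048788-75049087 (minus) for Ly6c1 and chr7:43436888-43437187 (plus) for Nkg7.
Ly6c2: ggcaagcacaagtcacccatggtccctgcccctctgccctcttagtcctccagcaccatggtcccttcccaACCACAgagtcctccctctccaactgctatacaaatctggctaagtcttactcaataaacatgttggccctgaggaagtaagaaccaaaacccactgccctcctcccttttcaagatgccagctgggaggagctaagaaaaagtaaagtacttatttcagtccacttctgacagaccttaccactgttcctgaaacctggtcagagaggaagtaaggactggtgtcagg
Ly6c1: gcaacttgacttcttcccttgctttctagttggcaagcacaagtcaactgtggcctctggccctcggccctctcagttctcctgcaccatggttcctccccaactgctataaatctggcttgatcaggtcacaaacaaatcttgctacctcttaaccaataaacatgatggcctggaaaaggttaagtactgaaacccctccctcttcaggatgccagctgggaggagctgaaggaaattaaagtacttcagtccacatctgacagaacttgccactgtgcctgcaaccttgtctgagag
Nkg7: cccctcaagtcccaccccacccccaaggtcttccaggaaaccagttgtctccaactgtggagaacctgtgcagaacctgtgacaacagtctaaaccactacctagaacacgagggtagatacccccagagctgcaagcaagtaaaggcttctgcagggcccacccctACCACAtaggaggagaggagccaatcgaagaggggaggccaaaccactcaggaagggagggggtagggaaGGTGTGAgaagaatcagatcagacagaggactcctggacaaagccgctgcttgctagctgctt
The RUNX core was found once in the Ly6c2 window and once in the Nkg7 window, and it occurs in 16.8% of all 32851 such windows. The T-box letters were found in the Nkg7 window, and occur in 3.98%. Neither was found in this Ly6c1 window, while a second RefSeq window of Ly6c1 held the T-box letters once. An alignment of the Ly6c2 and Ly6c1 windows shown had 208 identical of 266 aligned bases (78.2%), with 68 gap positions left out of the share. The other pairs of their RefSeq windows had 63.35% to 88.4%, so the value depends on the windows taken. A match says only that the letters are there, and no binding was measured in these cells. No RefSeq window was given for Ctsw, Ccl5 or Klrd1.

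The other high ratios were of lineage and cytotoxic genes. Cd8a was 52.0-fold higher at the floor of 3 UMIs. Ctla2a, an inhibitor of cathepsins, was 13.3-fold higher (103 against 4 UMIs), Ctsw 8.75-fold (152 against 9) and Nkg7 6.37-fold (443 against 36). The lymphocyte receptor Cd7 was 6.22-fold higher (120 against 10) and Ccl5 5.89-fold (1193 against 105). The homeodomain protein Hopx was 5.35-fold higher (124 against 12) and Klrd1 5.03-fold (136 against 14). Fam241a was also high, at 8.55-fold (66 against 4). In CD4 T cells Ccl5 lay mostly in 1 cell, which held 85 of the 105 UMIs. Runx3, a transcription factor of the CD8 lineage, was 1.16 higher on the log2 scale (0.48 to 1.90), at 161 against 72.0 CPM. The CD4 lineage genes Zbtb7b and Cd40lg were at 2 and 3 UMIs in CD8 T cells and at 25 and 32 in CD4 T cells, too few for the filter.

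**Figure D3:**
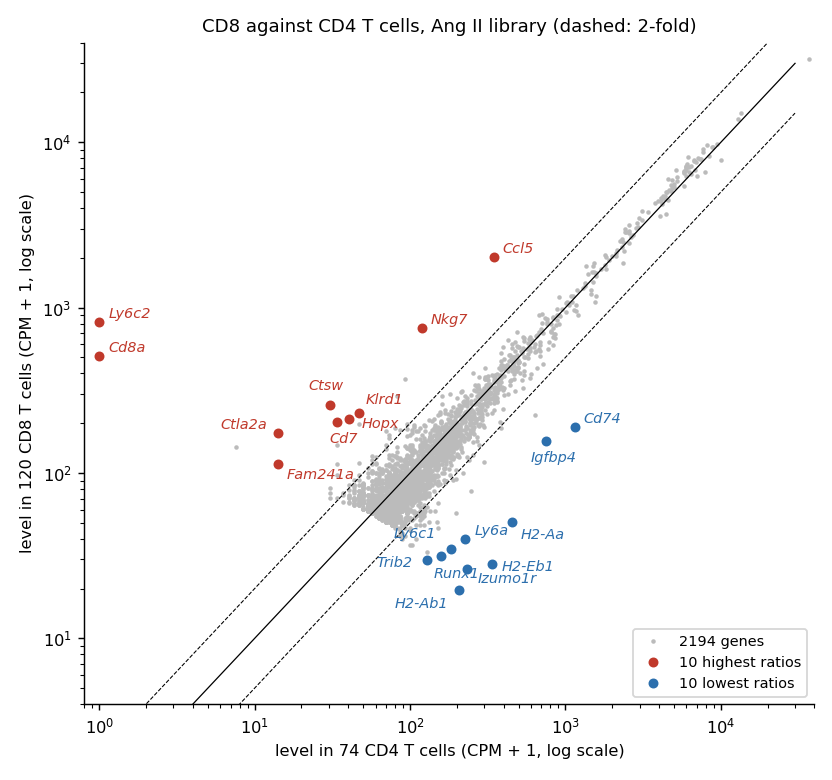
Level of 2194 genes in 120 CD8 T cells against 74 CD4 T cells of the Ang II library (CPM + 1, log axes). The solid line marks equal levels and the dashed lines 2-fold, and red and blue points are the 10 highest and 10 lowest ratios. Ly6c2 and Cd8a lie at 0 CPM in CD4 T cells, and the class II genes and Cd74 below the lower dashed line rest mostly on 1 CD4 T cell. Receptor segment and ribosomal protein genes are plotted in grey and were not named.

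The lower side held CD4 T cell genes and an effect of a single cell. Izumo1r (folate receptor 4, a surface protein of helper and regulatory T cells) was at 15 against 71 UMIs, Runx1 at 18 against 48, Igfbp4, which binds insulin-like growth factors, at 92 against 227 and the pseudokinase Trib2 at 17 against 39. The MHC class II genes H2-Eb1, H2-Ab1 and H2-Aa had log2 ratios of -3.64, -3.47 and -3.20, and the class II chaperone Cd74 -2.59. Of the 304 UMIs of these 3 class II genes in CD4 T cells, 288 lay in 1 cell, and in CD8 T cells 56 lay in 37 cells with at most 6 in any. With that CD4 cell left out, a choice made after seeing the data, 39 genes were higher and 46 lower, and the Cd74 ratio was 0.010 (-0.46 to 0.50). The same cell bore on the higher side, where without it the log2 ratio of Cd7 moved from 2.64 to 3.92 and that of Klrd1 from 2.33 to 3.29.

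Against NK cells, which share the killing machinery but carry no T cell receptor, 172 of 4108 genes were higher (4.19%) and 832 lower (20.3%), with a median log2 ratio of -0.46. Ribosomal protein genes made up 38.2% of the UMIs of CD8 T cells and 17.8% of those of NK cells. With TMM scaling 313 were higher and 424 lower, with a median of -0.062, and with ribosomal protein genes left out 244 and 417. Of the 12 genes of the naive list 7 were higher and 0 lower. Among them were Ccr7 (156 against 3 UMIs), Lef1 (2.73 on the log2 scale), Il7r (3.22) and Dapl1 (218 against 0 UMIs, 108-fold at the floor of 3 UMIs). T cell receptor partners were higher as well, among them Cd5 and Themis, at 91 and 86 UMIs against 0. Further high ratios were those of Fam169b, Gm8369, the actin crosslinker Actn1, Nsg2 and Igfbp4, at 45.6-fold (Igfbp4, at the floor of 3 UMIs) to 112-fold (Fam169b).

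All 12 tested genes of the cytotoxic list were lower than in NK cells, with a list median of -3.79. With TMM scaling 11 were lower, where Cst7 fell short of 2-fold. The filter keeps a gene that is high in NK cells alone, so these counts describe the tested sums only. The listed genes under the filter were Gzmk (12 against 8 UMIs), Gzmm (17 against 22) and Tnf (5 against 8). Their log2 ratios were 1.16, 0.20 and -0.11. The differences were unequal. Gzmb was 97.7-fold lower at the floor of 3 UMIs (0 against 436 UMIs) and Gzma 164-fold lower (39 against 9512 UMIs). Nkg7 had a log2 ratio of -2.37 (-2.51 to -2.22), Klrd1 of -1.82 and Ctsw of -1.79. Ly6c2 was alike in both classes, at 822 against 880 CPM and a log2 ratio of -0.10 (-0.27 to 0.067). The NK genes Tyrobp (1 against 3714 UMIs), Fcer1g (6 against 2949), Klrb1c (3 against 948), Klra9, Klra8 and Klra4 of the Ly49 family, Itgam, Cd244a and Itga2 were 98.9-fold to 2504-fold lower. The Ly49 genes are near copies of each other, so their split is uncertain. Within hashtag C0303 alone (118 against 53 cells, a choice made after seeing the data), 155 of 1923 genes were higher and 309 lower.

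Ccl5 divided the CD8 T cells themselves. It was found in 39 of 120 cells and missing from 81, and the 10 cells with most held 764 of its 1193 UMIs. Where any was found the median was 22 UMIs and the maximum 174, with 5 cells at 1 UMI and 27 at 10 or more. In B cells 3.33% of barcodes held a UMI. The cells with and without Ccl5 were compared as a description chosen after its values were seen, and Ccl5 itself was left out of the genes compared. The median depth was 5485 UMIs in cells with Ccl5 and 4548 in those without. Of 1370 genes, 17 were higher (1.24%) and 22 lower (1.61%) in cells with Ccl5, with a median log2 ratio of -0.0052, and with TMM scaling 13 and 29.

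Of the 19 genes of the memory list only 4 had enough UMIs to be tested, and the filter keeps a gene that is high in 1 group alone. Among these 4, 3 were higher in cells with Ccl5 (Itgb1, Il2rb and Ly6c2), with a median of 2.21, and Klrd1 fell short of 2-fold. Log2 ratios of the memory genes under the filter ran from -0.42 (Id3) to 3.24 (Klrk1) where a ratio was formed. The highest ratio was that of a gene on no list. S100a6, a calcium-binding protein (ENSMUSG00000001025, chromosome 3, 90612882 to 90624181, plus strand), was at 116 UMIs in 21 of 39 cells against 2 UMIs in 2 of 81, a 103-fold difference (log2 ratio 6.68, 4.80 to 9.75). Ctla2a was 16.5-fold higher (93 against 10 UMIs), the integrin chain Itgb1 10.6-fold (48 against 8), Il2rb 5.49-fold (62 against 20), the scaffold protein Ahnak 4.46-fold (126 against 50) and Ly6c2 3.88-fold (333 against 152). Ly6c2 was found in 89.7% of cells with Ccl5 (75.8% to 97.1%) and 32.1% of those without (22.2% to 43.4%). When each cell was thinned to 1000 UMIs the shares were 74.4% and 17.3%. Ms4a4c, Hopx, the ubiquitin ligase Rnf138 and Cst7 were 2.54-fold to 3.04-fold higher. Genes under the filter went both ways. Cxcr3 was found in 18 of 39 against 5 of 81 cells and Xcl1 in 10 against 1, while Ccr9 was in 0 against 18, Itgae in 1 against 11 and the transcription factor Bach2 in 5 against 23. The log2 ratio of Itgae had an interval that includes 0 (-8.06 to 0.148), and that of Bach2 came near it (-2.91 to -0.039). After thinning, Bach2 was found in 7.69% against 9.88% of cells. Cxcr6, in 12 against 18 cells, had a log2 ratio of 0.54 (-0.449 to 1.501).

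Granule genes were uneven among themselves. Cst7 was past 2-fold, and of the rarer genes under the filter Prf1 was found in 13 of 39 cells with Ccl5 against 11 of 81 without (20 against 12 UMIs, log2 ratio 1.56, 0.46 to 2.73), Gzmm in 8 against 1 and Gzmk in 3 against 0. Nkg7 was found in 94.9% of cells with Ccl5 (82.7% to 99.4%) and 75.3% of those without (64.5% to 84.2%), a log2 ratio of 0.88 (0.61 to 1.16) in level. Ctsw had a ratio of 0.98 (0.50 to 1.46) and Klrd1 of 0.78 (0.28 to 1.29), all short of 2-fold. For Gzma, 35 UMIs came from 1 cell with Ccl5 and 4 from 2 cells without.

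**Figure D4:**
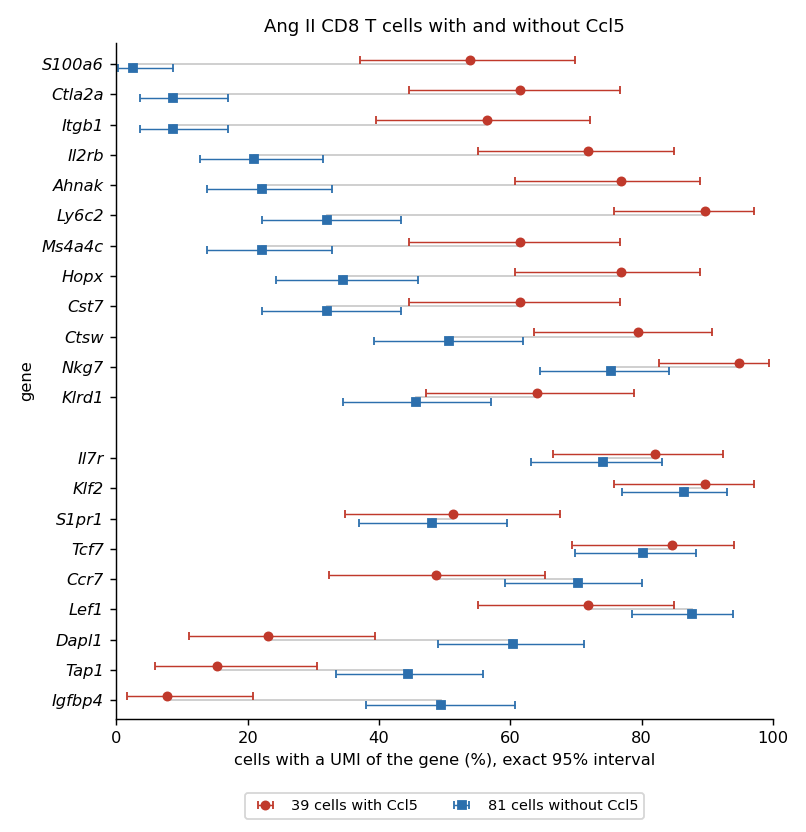
Share of cells with a UMI (%, exact 95% interval) for selected genes in 39 Ang II CD8 T cells with Ccl5 (circles) and 81 without (squares). The upper group holds genes that were higher with Ccl5 and 3 granule or receptor genes short of 2-fold. The lower group holds genes of naive and resting T cells, and Tap1 of antigen presentation. Intervals lie apart for S100a6 to Cst7, and overlap widely for Il7r, Klf2, S1pr1 and Tcf7.

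Of the naive list 3 of 11 tested genes were lower in cells with Ccl5 and 0 higher. Igfbp4 was 16.7-fold lower (3 against 89 UMIs), in 3 of 39 against 40 of 81 cells. Dapl1 fell by 1.77 on the log2 scale (31 against 187 UMIs) and Lef1 by 1.12 (57 against 219 UMIs). Ccr7 had a ratio of -0.86 (-1.43 to -0.32), short of 2-fold. Tcf7 gave -0.20 (-0.60 to 0.18) and Il7r gave 0.49 (0.17 to 0.81). Tap1, which carries peptides to class I molecules, was 4.52-fold lower (6 against 48 UMIs), and Gm8369, Scamp3, the chaperone Calr, Rflnb, Smap2, the integrin chain Itga4 and Tnrc6c were 2.22-fold to 3.71-fold lower.

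The T cell receptors were varied. A beta variable segment was found in 110 of 120 CD8 T cells, 80 of them with a single segment and 30 with more, and 21 of 35 listed segments occurred. Trbv13-2 was the most frequent, in 23 cells (19.2%, 12.6% to 27.4%), followed by Trbv12-2 in 14, Trbv1 and Trbv12-1 in 10 each and Trbv3 in 9. In CD4 T cells 20 segments occurred in 70 of 74 cells, Trbv13-2 in 13 (17.6%, 9.70% to 28.2%). The orders differed below it, with Trbv19 in 11 and Trbv5 in 8 CD4 T cells against 5 and 1 CD8 T cells, and the intervals of both classes overlap for Trbv19 (4.17%, 1.37% to 9.46%, against 14.9%, 7.66% to 25.0%) and lie apart for Trbv5 (0.833%, 0.0211% to 4.56%, against 10.8%, 4.78% to 20.2%). Alpha variable segments were found in 82 cells, with 49 of 128 segments, and Trav13-1 was the most frequent, in 9 cells. No gamma variable segment was found, and delta variable segments were found in 6 cells. Segments of 1 family are near copies, so a cell with more than 1 may have had reads of a single chain divided between them, and no clonotype can be read from these counts.

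**Figure D5:**
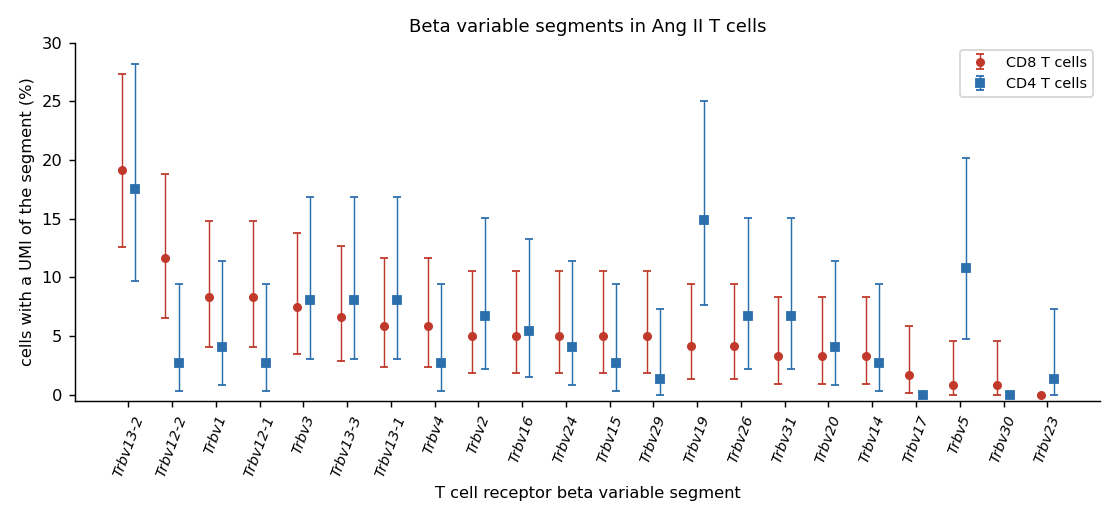
Share of cells with a UMI of each T cell receptor beta variable segment in 120 CD8 T cells (circles) and 74 CD4 T cells (squares) of the Ang II library, with exact 95% intervals. Trbv13-2 leads in both classes at 19.2% and 17.6%, and no segment exceeds 20%.

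The 6 CD8 T cells of the other libraries were too few for a comparison across genes. In the control library they held 1259 to 5589 UMIs. Ccl5 was found in 3 of these 5 cells, at 34, 46 and 52 UMIs, and Gzma in 2, at 13 and 36 UMIs, where the highest count among the 120 Ang II cells was 35. The control cell with 36 Gzma UMIs also held 18 Tyrobp UMIs and 5 Ly6c2 UMIs, and another held 6 Tyrobp UMIs. Lef1 was found in 1 of the 5 and Ccr7 in 2. The B6.SLE123 cell held 794 UMIs, with 3 of Cd8b1, 5 of Cd3d and 1 of Gzma, and 0 of Ccl5, Lef1 and Ccr7. Likewise the 2 Ang II cells outside C0303 could not be compared with the 118 inside it.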

How the data were processed

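The authors pooled splenocytes of 3 mice per condition after CD3 bead depletion, hashed them with TotalSeq-C antibodies and deposited raw UMI counts per gene and barcode from Cell Ranger 6.0.0 (file headers) on mm10 (submitters' processing notes). The counts are not normalized, and 6 hashtag counts stand beside 32285 genes, of which 32235 were matched to GENCODE vM21 positions by identifier. The study states its cell limits as RNA counts above 200 and below 3500; here they were read as genes, and as UMIs in an alternative. A hashtag ratio of 3 removes barcodes that mix hashtags. No doublet caller was run, so doublets within a hashtag remain.

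The members and gene lists were chosen with earlier results of these data known. With 1 library per group no test was made. Shares carry exact Clopper-Pearson intervals, levels are summed counts per 1000000 UMIs (CPM) with exact Poisson intervals, and ratios of summed counts carry exact conditional intervals, all at 95% and for counting error only, since cells of a library are not replicates. A count of 0 was given a limit of 3 counts. Limits and ratios that rest on a 0 use it, and their exact 95% limits are wider. The comparisons across genes took genes with at least 50 UMIs over both classes, called a gene at 2-fold, and named the 10 highest and 10 lowest ratios outside the genes of the rule, immunoglobulin and T cell receptor segment, sex-linked, mitochondrial and ribosomal protein genes, plus the 2 to 5 highest genes of each list. Genes named beyond these were chosen after their values were seen.

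Alternatives were the hashtag ratio, the cell limits, the marker minimums, further excluded markers, shared barcodes (1351 barcodes occur in at least 2 libraries), hashtag C0303 left out, the UMI filter, the total used as denominator, TMM scaling and thinning of each cell to 1000 UMIs. Thinning left out 1 CD4 T cell, 10 NK cells and 521 B cells. In simulated data with 200 changed genes, 95.3% to 96.8% of intervals held the true ratio over 20 runs of CD8 against CD4 T cells. The simulated counts were independent Poisson draws on class sums, the model that the intervals assume. They held no clustering of UMIs in single cells, so the runs checked the calculation and not the intervals for these data. Python 3.11.15 with numpy 2.4.6, pandas 2.3.3 and scipy 1.17.1 was used, R 4.3.3 with edgeR 4.0.16 gave the TMM factors alone, and Biopython 1.88 aligned the start regions. Results for a few genes, and 1 setting that used such a gene, are not reported here.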

Additional observations from a re-analysis of the deposited data

How the results depend on the processing

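No paired analysis was possible because each group was 1 library. Over 8 main results and their alternatives, 57 of 85 values stayed within counting error or within 1.5 times the count, 27 moved and 1 turned direction; of 414 values of single genes and shares, 363 stayed, 49 moved and 2 turned. Without hashtag C0303 the Ang II share was 0.0173% and its log2 ratio to control -0.86. With the cell limits read as UMIs, 22 cells were left, at a share of 0.226%, a log2 ratio of 2.98, 90.9% in C0303, naive and cytotoxic sums of 4266 and 5729 CPM, and 7 and 667 genes past 2-fold against CD4 T and NK cells. With Cd79b, Ms4a1, S100a8 and S100a9 also required at 0, a set chosen after seeing the data, the share was 0.429%, the cytotoxic sum 3879 CPM, the gene counts 52 and 635, and the Cd74 ratio to CD4 T cells 0.28; it was 0.010 without the class II-rich CD4 cell. The cytotoxic sum was 3139 CPM without the Lyz2 and Ncr1 limits and 3608 CPM after thinning. With immunoglobulin, receptor, mitochondrial and ribosomal protein genes out of the total, the naive and cytotoxic sums were 6768 and 5653 CPM. The gene counts against CD4 T cells (94), NK cells (1004) and by Ccl5 (39) became 514, 1982 and 329 at 20 UMIs, 1793, 3300 and 1692 with no filter, and 10, 404 and 4 after thinning, where fewer genes reached the filter or more did. Against NK cells 464 were past 2-fold in C0303 alone and 661 with ribosomal protein genes left out. For the other moved values the cause was not tested. Gene levels without C0303, and C0303 against the other hashtags, were not run, since 2 cells lie outside it.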
